A study of Drosophila melanogaster with 2 samples.

Results

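The genes of dorsoventral and mesoderm patterning described here were Tl, cact, dl, twi, sna, tin, rho, sog, dpp and zen, 10 of the 13968 protein-coding genes that Ensembl's annotation of dm6 places on the 7 chromosome arms. They were chosen by name, with earlier results of these data known. A peak was counted for a gene when its summit lay in the gene or within 1000 bp of it. The peaks came from chromatin immunoprecipitation with sequencing (ChIP-seq), which maps where a protein sits on DNA. Chromatin of whole Drosophila melanogaster embryos aged 0 to 24 hours, from a transgenic strain in which CG4730 is fused to eGFP, was precipitated with an antibody to GFP. Both replicates came from that strain. There was 1 group of 2 biological replicates, so no contrast between conditions could be tested, and no test was made. The labels do not give the sequence that drives the fusion gene, and the embryos were a mixture of all tissues and stages in that window. A peak at a gene that is active in only some nuclei therefore cannot be assigned to those nuclei, and since expression was not measured the tissue could not be checked against markers. The control that the labels refer to was not analysed here. The authors' pooled set held 3571 peaks that passed an irreproducible discovery rate (IDR) threshold, and the replicates' own sets held 2309 and 2434. Peak signal is the authors' own value, has no stated unit, and is larger in the pooled lists (up to 2235) than in those of single replicates (up to 1124 and 1121). The read depth behind it is unknown.

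Dorsoventral patterning of the fly embryo begins with the receptor Toll (Tl), which is activated on the ventral side. Its signal removes Cactus (cact), an inhibitor that holds the transcription factor Dorsal (dl) in the cytoplasm. Dorsal then enters ventral nuclei and forms a gradient. High levels switch on twist (twi) and snail (sna) in the future mesoderm, and lower levels switch on rhomboid (rho) and short gastrulation (sog) in the neurogenic ectoderm. Dorsal represses decapentaplegic (dpp) and zerknüllt (zen), which then act on the dorsal side, while tinman (tin), a target of Twist, is needed later for the heart and the visceral muscle.

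Pooled peaks lay at 5 of the 10 genes, namely tin, sog, cact, dpp and twi, against 22.7% of all coding genes by the same rule. No pooled peak lay at dl, Tl, sna, zen or rho. The 5 genes held 8 peaks, of which sog had 4. The replicates did not give equal support to them. In each replicate's own set tin, cact and sog held a peak, dpp held one in replicate 2 only, and twi held one in neither. This made 3 of 10 members in replicate 1, against 16.6% of coding genes, and 4 of 10 in replicate 2, against 17.4%. The authors' conservative pooled set held 4 of the 10, without twi, against 21.3% of coding genes. Coding genes with a summit in both replicates' own sets made up 14.0%, and 3 of the 10 members were among them. The median pooled signal of the 8 peaks was 155, and that of all 3551 pooled peaks on the arms was 108.

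**Figure D1:**
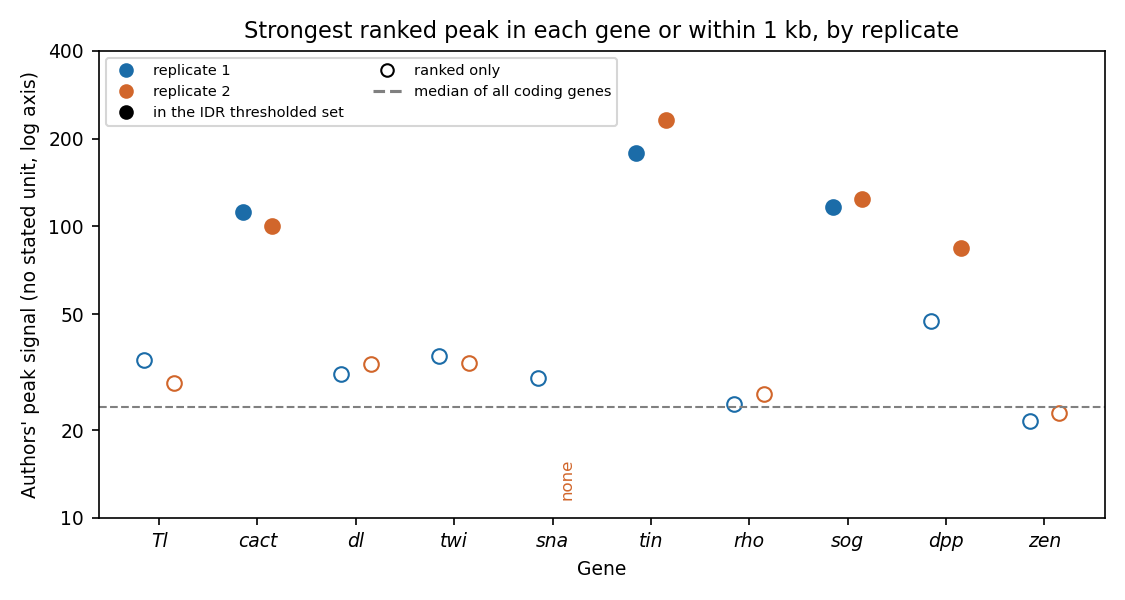
The signal of the strongest ranked peak in each gene or within 1 kb (y axis, log scale, no stated unit) is plotted for replicate 1 and replicate 2, with filled points where the replicate's thresholded set holds a peak at the gene and a dashed line at the mean of the replicates' medians over all coding genes. The points of tin, sog and cact lie at 99.97 or above in both replicates, while those of rho and zen lie near the dashed line, and sna has no ranked peak in replicate 2.

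Among the genes upstream of Dorsal, cact held a peak at its promoter and the receptor gene Tl held none. The cact peak (FBgn0000250; dm6, chr2L:16325578-16325917) had a signal of 112 in replicate 1 and 99.97 in replicate 2, a mean of 106 ± 8.17 (SD, n = 2). Both values were below those of tin and of the strongest sog peak. Its pooled summit lay in an intron, 123 bp upstream of the nearest of the gene's 4 annotated starts and downstream of others. No other gene had a start within 1000 bp of it, and the next was CG4278 at 1321 bp. Of the pooled peaks, 17.4% were stronger. The replicates' summits were 72 bp apart, the widest gap among the 8 member peaks. The window of 100 bp to each side of the pooled summit is shown because it lies in a promoter. It is read on the plus strand of dm6 (NCBI sequence), and capitals mark letters of the motifs that are named with the base composition.
cact, chr2L:16325648-16325848: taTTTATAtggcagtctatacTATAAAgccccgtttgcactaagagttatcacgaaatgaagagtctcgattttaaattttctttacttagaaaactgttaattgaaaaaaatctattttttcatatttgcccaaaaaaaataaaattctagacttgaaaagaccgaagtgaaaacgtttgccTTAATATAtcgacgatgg

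The receptor gene Tl (FBgn0262473) is 43.4 kb long and had only ranked peaks, that is, peaks listed before the threshold. The strongest was close to its single start, with a signal of 34.8 in replicate 1 and 59.7 in the pooled list. In replicate 2 the strongest at Tl had a signal of 28.9 and lay elsewhere in the gene. The values of both replicates were above the medians of all coding genes, 24.0 in replicate 1 and 24.1 in replicate 2. They were below the medians of coding genes over 10 kb, 36.2 and 36.4. Among coding genes over 10 kb, 56.1% had a stronger pooled ranked peak than Tl. The nearest pooled summit outside Tl was 17022 bp away, in the neighbouring gene Lerp.

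The gene of the transcription factor Dorsal itself, dl (FBgn0260632), also had no thresholded peak in any set. Its strongest pooled ranked peak (dm6, chr2L:17450842-17451181) had a signal of 67.6 and lay 648 bp upstream of a dl start, in an exon of lncRNA:CR46204. Every peak kept in a set had a −log10 of its global IDR of at least 2.00, although 112 pooled ranked peaks at or above that value, none of them at the 10 genes, were not kept. This peak reached 1.41 in the pooled list and 1.91 in the conservative list. The same peak had a signal of 31.2 and a −log10 IDR of 0.132 in replicate 1, and 31.4 and 1.61 in replicate 2. The replicates were thus close in signal but not in IDR, and the peak came near the threshold only in the conservative list. The strongest value at dl in replicate 2 was 33.7, at another summit. The nearest pooled summit outside dl lay 6596 bp away in an intron of Dif, which encodes another Rel-family factor of the Toll pathway, with a pooled signal of 362.

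In the mesoderm group tin had the strongest peak of all 10 genes. It lay on chr3R:21378664-21378862 (dm6) in intergenic sequence, with its summit 203 bp upstream of the single start of tin (FBgn0004110), which encodes a homeodomain factor. Its signal was 178 in replicate 1 and 232 in replicate 2, a mean of 205 ± 38.2 (SD, n = 2). Both values were above every peak at another member in either replicate. Only 5.54% of the pooled peaks were stronger than its pooled signal of 402. The replicates' summits were 2 bp apart. The start next closest to the summit belonged to mod(mdg4), 1373 bp away. Of all coding genes, 1.32% had a stronger ranked peak within 500 bp of a start. The window around the summit is shown because this was the strongest peak of the set, with motif letters in capitals as above.
tin, chr3R:21378674-21378874: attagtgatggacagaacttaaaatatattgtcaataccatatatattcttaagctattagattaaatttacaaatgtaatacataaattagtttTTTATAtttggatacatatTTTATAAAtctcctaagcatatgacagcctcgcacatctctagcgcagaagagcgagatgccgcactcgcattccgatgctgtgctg

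The peak counted for twi (FBgn0003900), the gene of a basic helix-loop-helix factor that drives mesoderm formation, was the weakest of the 8. It lay on 2R (dm6, 23039683 to 23040022) and had a pooled signal of 59.3, with 94.5% of the pooled peaks stronger. Its ranked signal was 31.2 in replicate 1 and 26.5 in replicate 2, and neither passed the threshold there. The pooled −log10 IDR was 2.05, just inside the threshold, and 1.57 in the conservative list, outside it. The annotation gives twi a length of 63.0 kb because 1 of its 3 starts lies far upstream of the others. The summit lay in the resulting long intron, 6255 bp upstream of the closest start of twi, and also in an intron of CG42741, whose start was closer, at 3090 bp. When twi was taken from its downstream starts only, it held no pooled peak and the members with one numbered 4. At the starts of twi the strongest ranked peak within 500 bp had a signal of 8.20 in replicate 1 and 18.0 in replicate 2, against medians over coding genes of 13.8 and 15.2.

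No thresholded peak lay at sna (FBgn0003448), the gene of a zinc finger repressor in the mesoderm. The strongest pooled ranked peak there lay in a coding exon, 624 bp downstream of the start, with a signal of 59.4. Its −log10 IDR was 1.001 in the pooled list and 1.80 in the conservative list. In replicate 1 it reached 30.2, and replicate 2 listed no peak at all at sna, so the replicates differed there. The nearest pooled summit was 20750 bp away and lay 117 bp from a start of lace.

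Of the genes that lower Dorsal levels switch on in the neurogenic ectoderm, sog held 4 pooled peaks and rho held none. The gene sog (FBgn0003463; dm6, chromosome X) encodes a secreted inhibitor of BMP ligands, and all 4 summits lay in 1 long intron downstream of its starts. The strongest (15622975 to 15623133) had a signal of 116 in replicate 1 and 124 in replicate 2, a mean of 120 ± 5.61 (SD, n = 2), with its summit 3482 bp downstream of the nearest start. The next (15619363 to 15619702), 7007 bp downstream of that start, had 92.0 in replicate 1 and 70.3 in replicate 2, a mean of 81.2 ± 15.3 (SD, n = 2). The values of these peaks did not overlap between them. The remaining peaks lay 8412 and 10915 bp downstream of that start, with pooled signals of 70.5 and 68.1, and neither replicate's own set held them.

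The weaker sog peaks differed between replicates in which was higher. The peak at 8412 bp had a ranked signal of 29.6 in replicate 1 and 41.9 in replicate 2, and the peak at 10915 bp had 35.3 and 29.7. In the conservative list both had a −log10 IDR of 1.98, just under the threshold. Summits of the 4 sog peaks were 4 to 14 bp apart between the replicates. At the sog starts themselves the strongest ranked peak within 500 bp reached 22.0 in replicate 1 and 20.5 in replicate 2. Both values were below those of all 4 intronic peaks in the same replicate. Of all coding genes 0.845% held 4 or more pooled summits, and of the 552 coding genes of 20 to 40 kb, the class of sog at 30.2 kb, 6.16% did. The windows of the strongest peaks at sog are shown because they were found in both replicates and lay away from any start.
sog strongest, chrX:15622958-15623158: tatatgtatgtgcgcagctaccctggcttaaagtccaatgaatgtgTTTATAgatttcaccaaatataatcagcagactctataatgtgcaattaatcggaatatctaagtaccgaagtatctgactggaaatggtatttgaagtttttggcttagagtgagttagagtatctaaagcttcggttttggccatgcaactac
sog next, chrX:15619433-15619633: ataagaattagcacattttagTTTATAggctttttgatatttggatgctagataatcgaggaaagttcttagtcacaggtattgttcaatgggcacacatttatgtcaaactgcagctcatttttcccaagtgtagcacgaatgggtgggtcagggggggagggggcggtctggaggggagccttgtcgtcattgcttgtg

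The gene rho (FBgn0004635), which encodes an intramembrane protease that releases the EGF receptor ligand Spitz, had only ranked peaks. The strongest in the pooled list, with a signal of 47.2, lay downstream of rho in an intron of Ptp61F, and had 24.1 in replicate 1 and 26.5 in replicate 2. In replicate 1 another peak, in rho itself, was slightly higher at 24.6. These values are close to the medians of all coding genes given for Tl. The whole of rho lies within Ptp61F, a gene on the other strand, so a summit in rho is also one in Ptp61F. The nearest pooled summit was 10568 bp from rho, in stet, another rhomboid family gene, 571 bp from a stet start.

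Of the genes repressed by Dorsal, dpp held 1 pooled peak and zen held none. The dpp peak (FBgn0000490, the gene of a BMP ligand; dm6, chr2L:2433485-2433824) lay in the intron behind the most upstream start, 5283 bp downstream of it. Its ranked signal was 47.5 in replicate 1 and 84.1 in replicate 2, and its pooled signal was 133. Replicate 2 kept it and replicate 1 did not, although its −log10 IDR in replicate 1 was 1.98, just under the threshold. The mean over both replicates' ranked lists was 65.8 ± 25.9 (SD, n = 2), the largest spread relative to its mean among the 8 peaks. The replicates' summits were 6 bp apart. The window is shown because the 2 replicates fell on different sides of the threshold.
dpp, chr2L:2433555-2433755: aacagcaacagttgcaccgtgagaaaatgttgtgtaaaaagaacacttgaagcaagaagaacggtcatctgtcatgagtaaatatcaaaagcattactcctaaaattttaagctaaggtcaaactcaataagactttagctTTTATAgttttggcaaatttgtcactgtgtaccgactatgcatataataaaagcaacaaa

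The homeobox gene zen (FBgn0004053), which acts in the amnioserosa, had the lowest value of the 10 genes, with 46.7 for its strongest peak in the pooled ranked list. Its values were 21.4 in replicate 1 and 22.9 in replicate 2, below the medians of all coding genes in both. The medians of coding genes up to 10 kb were 22.5 and 22.8, so zen was below in replicate 1 only. The pooled value was above the pooled median of all coding genes, 43.1. The nearest pooled summit was 5400 bp away and lay 128 bp from the start of bcd, which encodes the anterior morphogen Bicoid. Its pooled signal was 144.

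**Figure D2:**
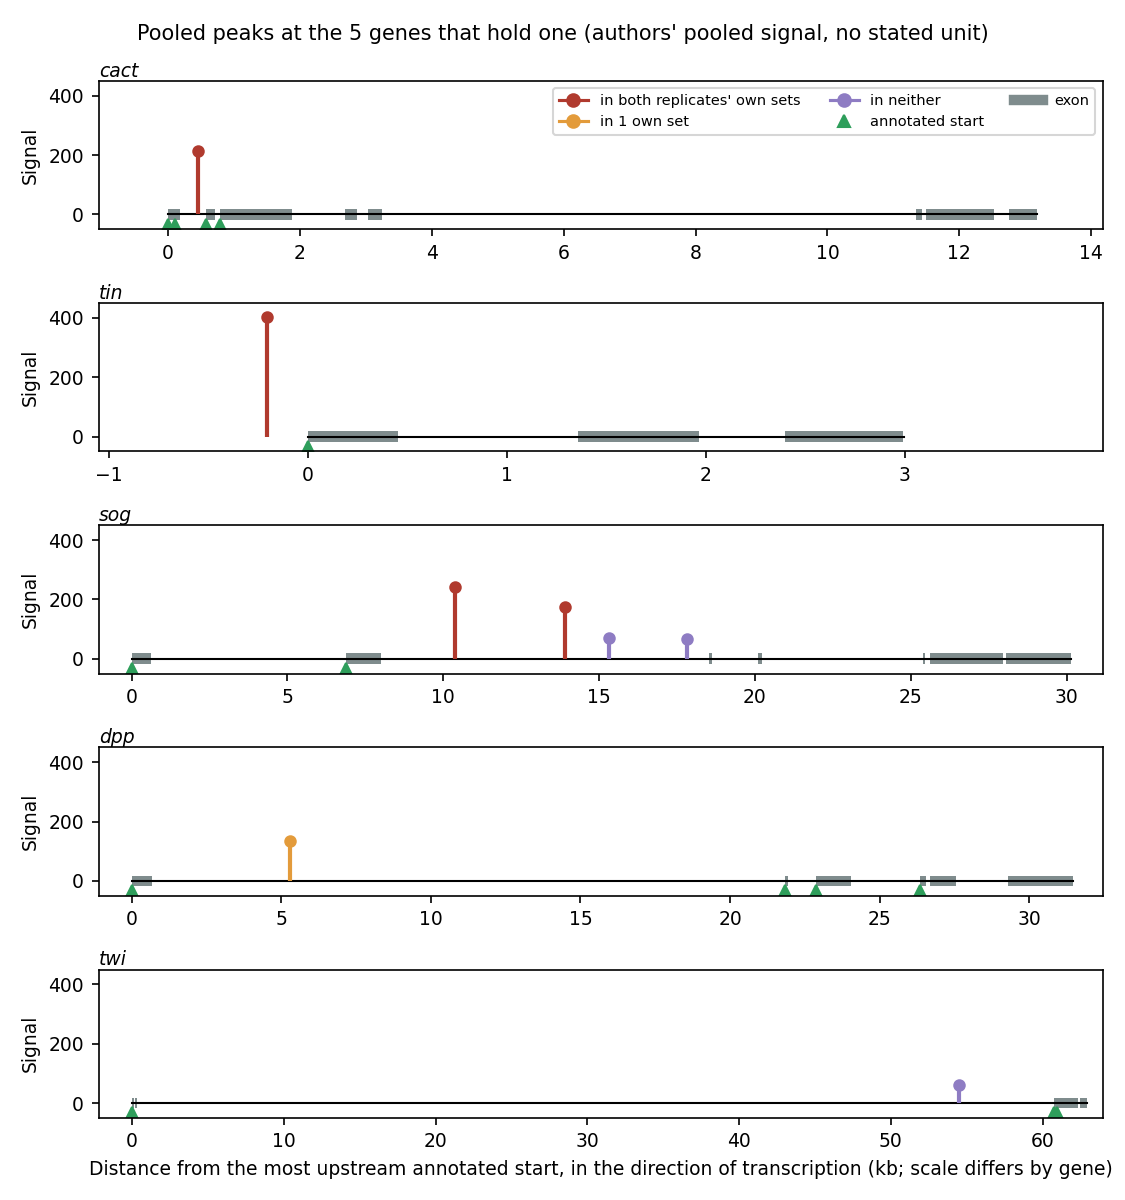
Each panel shows 1 of the 5 genes with a pooled peak, drawn from its most upstream annotated start in the direction of transcription (x axis, kb, a different scale for each gene), with exons as blocks, starts as triangles and peaks as stems whose height is the authors' pooled signal. The peaks of cact and tin stand at a start, while those of sog, dpp and twi stand in introns, 3482 bp or more from the nearest start of the gene.

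Long genes offer more room for a summit, and the members were long, with a median length of 13354 bp against 2165 bp for all coding genes. Of the 6 members over 10 kb, 4 held a pooled peak, against 47.8% of the 1985 coding genes of that length. Of the 4 members up to 10 kb, only tin held one, against 18.6% of the 11983 coding genes of that length. Coding genes no shorter than zen and no longer than twi held one in 27.0% of cases. The share in the class of sog and dpp, 20 to 40 kb, was 49.3%. With so few members in a class, these counts were near the share of other genes, and the 5 of 10 is not a result about these genes. With a summit required in both replicates' own sets, 2 of the 6 long members remained, cact and sog, against 31.3% of coding genes over 10 kb. Ranked peaks, listed before the threshold, had a median density of 1.20 per kb at the members in the pooled list and of 1.19 at coding genes.

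**Figure D3:**
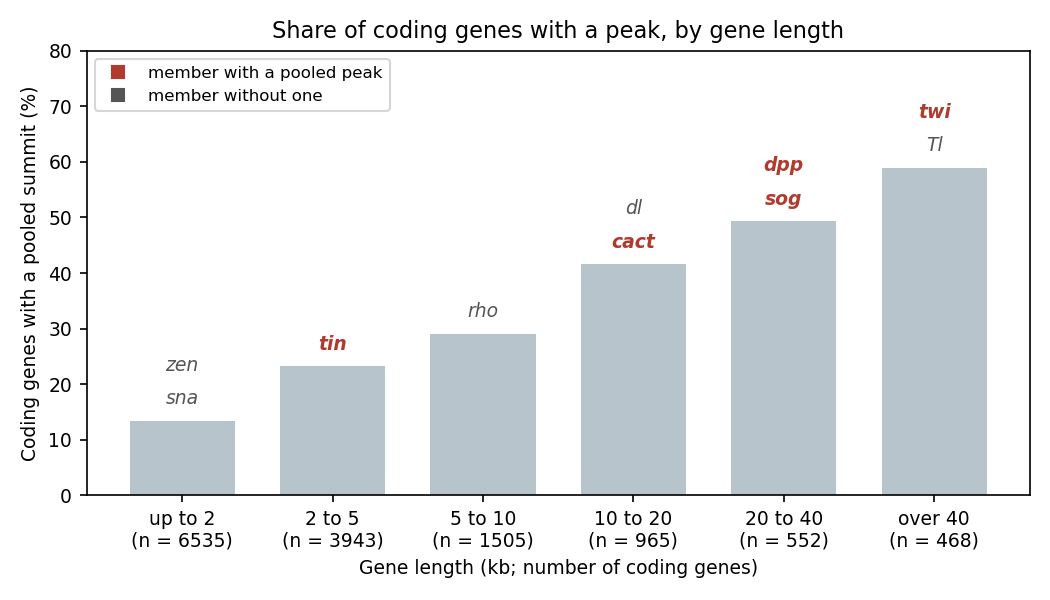
Bars show the percentage of protein-coding genes with a pooled summit in the gene or within 1 kb (y axis) in 6 classes of gene length (x axis, kb). The share rises from 13.4% of genes up to 2 kb to 59.0% of genes over 40 kb, and the names of the 10 genes stand above their class, in red where the gene holds a pooled peak.

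At the promoters, only tin and cact held a pooled peak. A pooled summit lay within 500 bp of a start at 2 of the 10 members and at 13.7% of coding genes. The strongest ranked peak in that window had a pooled signal of 402 at tin and 213 at cact, with 1.32% and 3.80% of coding genes higher. It was 59.7 at Tl, with 16.2% of coding genes higher. The other values were 47.7 at sog, 43.6 at dl, 40.5 at dpp, 21.8 at rho, 15.2 at twi and 13.1 at zen, and sna had no ranked peak there. The median over coding genes was 26.9, so rho, twi, zen and sna were below it. The promoter value of dl rested on replicate 2, with 33.7 there and 6.97 in replicate 1.

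The bases around the summits differed among the members. Within 50 bp of the summit 78.2% of bases were A or T at cact, 76.2% at tin, 69.3% at dpp and 67.3% at the strongest sog peak, against a median of 67.3% over all pooled peaks. The weaker sog peaks, which neither replicate's own set held, had 76.2% and 77.2%. The second sog peak had 57.4% and the twi peak 46.5%, which 93.7% of pooled peaks exceeded. The median over the 8 member peaks was 72.8%, and in flanks centred 500 bp away it was 57.7%, against 56.9% for the flanks of all pooled peaks. At the second sog peak and at twi the flanks held more A or T than the summit, at 69.3% and 51.98%.

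**Figure D4:**
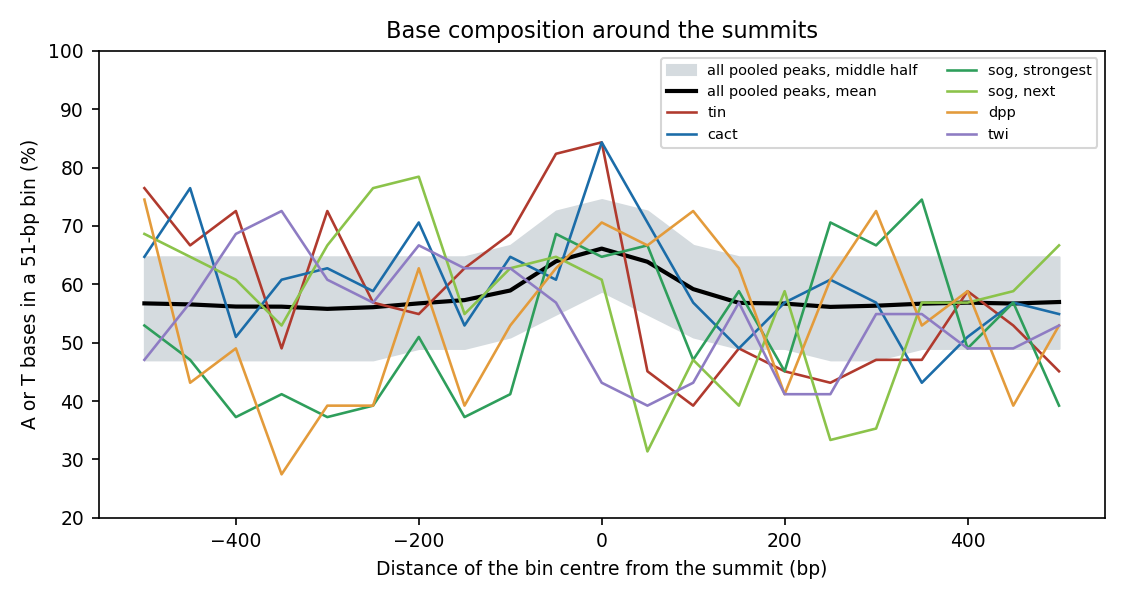
The percentage of A or T bases in bins of 51 bp (y axis) is plotted against distance from the summit (x axis, bp) for 6 member peaks and, as a black line with a grey band from the lower to the upper quartile, for all pooled peaks. The lines of cact and tin reach above the band at the summit, and that of twi falls below it.

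Letters of motifs were searched on both strands within 100 bp of each summit, and a match is a description of these letters, not a binding site. The TATA box letters TATAAA were in 6 of the 8 windows, namely those of cact, tin, dpp and 3 of the sog peaks, and in 35.5% of all pooled windows. Within 50 bp of the summit they were at 3 of the 8 peaks, those of tin, dpp and 1 of sog, and in 21.6% of pooled windows. In the tin window 3 matches lay 5 bp before and 14 and 16 bp after the summit, the last ones overlapping on opposite strands as TTTATAAA. The single match in the dpp window began 41 bp after the summit. The AT-rich letters TATATTAA were in the cact window only, 83 bp after the summit, and in 6.22% of pooled windows. The Dorsal-like letters GGGNNNNCC were in the twi window only, with 2 matches, and in 8.81% of pooled windows. No member window held the Twist-like E-box CACATG (7.29% of pooled windows), the Snail-like E-box CAGGTG (5.83%), the Zelda letters CAGGTAG (1.04%), the GAGA letters GAGAG (22.0%), the DRE letters TATCGATA (2.53%) or AGATGGCG (1.58%). The Snail-like and Zelda motifs share the letters CAGGT but differ in the next letter, so the same letters cannot match both. Within 150 bp to each side the Dorsal-like letters were also at tin and the strongest sog peak, and in 14.2% of pooled windows of that width. In the same windows CACATG was at cact (12.4% of pooled windows), and GAGAG was at 2 sog peaks (34.9%).

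The other genes of the same pathways were taken from a list of 98 symbols in 6 role groups, of which 97 matched a gene. A pooled peak by the same rule lay at 42 of the 97 (43.3%, beside 22.7% of all coding genes), or 37 of the 87 that are not members. A summit in each replicate's own set, with no pooled peak required, lay at 33 of the 97, beside 14.0% of all coding genes. Among the 33 was the BMP group gene brk, which both replicates' own sets held but which had no pooled peak. These genes too were long, with a median of 6674 bp. Over 10 kb, 27 of 40 held a peak (67.5%, beside the 47.8% of coding genes), and up to 10 kb 15 of 57 did (26.3%, beside 18.6%). The list was made with earlier results of these data known, so shares above those of coding genes are not an independent result about it. A promoter peak lay at 13 of the 97 (13.4%, beside 13.7%). The median pooled signal of the strongest peak over the 42 genes was 192.

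The counts of each role group are to be read against the same 22.7%, and against the higher share of long genes. In the Toll group 8 of 19 genes held a peak. Promoter peaks lay at pll, the kinase Pelle (pooled signal 230), at tub, the adaptor Tube (76.0), at Myd88, another adaptor of Toll (81.7), and at Traf6 (99.97). The pll signal was 85.4 in replicate 1 and 144 in replicate 2, an SD of 41.7 (n = 2), whereas neither replicate alone kept the tub peak. Dif held the intronic peak described beside dl, and pip held a weak one (63.8). The highest value of the list, 1309 at Gprk2, belonged to a summit 84 bp from the start of its neighbour PNPase and 593 bp from a Gprk2 start.

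In the BMP group, which took in sog and dpp, 9 of 18 genes held a peak, and of these genes none had one within 500 bp of a start. The transcription factor genes Mad and shn had pooled signals of 347 and 412, with 6 pooled peaks at shn. The receptor genes wit and tkv had 296 and 91.3, and the feedback inhibitor gene Dad and the BMP-binding cv-2 had 186 and 171. The 867 at Med, the gene of the common Smad, came from a summit 7 bp from a start of Mnat9. In the mesoderm group 12 of 28 genes held a peak, among them Mef2 (265, with 4 peaks), zfh1 (312), mthl1 (301), ths (240), how (178), Cyp310a1 (153), NetA (139, with 5 peaks), stumps (118), T48 (100.1) and nau (69.9).

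In the neurogenic ectoderm group the 3 of 11 genes with a peak were otp (427), spi, the gene of the EGF receptor ligand Spitz (361), and vn (76.4). In the dorsal ectoderm and amnioserosa group 5 of 14 held one, namely ush (198, with 7 peaks), Doc1 (174), egr (168), Doc2 (148) and pnr (81.5). In the group of maternal activators and corepressors 5 of 7 did, namely Trl, the GAGA factor gene (895, with 4 peaks), gro, the corepressor Groucho (472), Stat92E (203), cic (202) and CtBP (84.0). Of the 37 genes that are not members, 5 had 4 or more peaks, beside 0.845% of all coding genes. Their lengths were 64341 bp for ush, 58309 bp for shn, 49917 bp for NetA, 45363 bp for Mef2 and 13121 bp for Trl. Among the same 37 genes, 15 had their strongest peak closer to the start of another gene or, for Trl, equally close. Of the 37 strongest peaks, 29 were in both replicates' own sets, beside 49.1% of all pooled peaks on the arms. Those of tub, pip, tkv, nau, vn and CtBP, 6 in number, were in neither set, beside 23.1% of all pooled peaks. Only the strongest peak of each gene was counted here, so these counts and the shares beside them are not of like peaks.

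**Figure D5:**
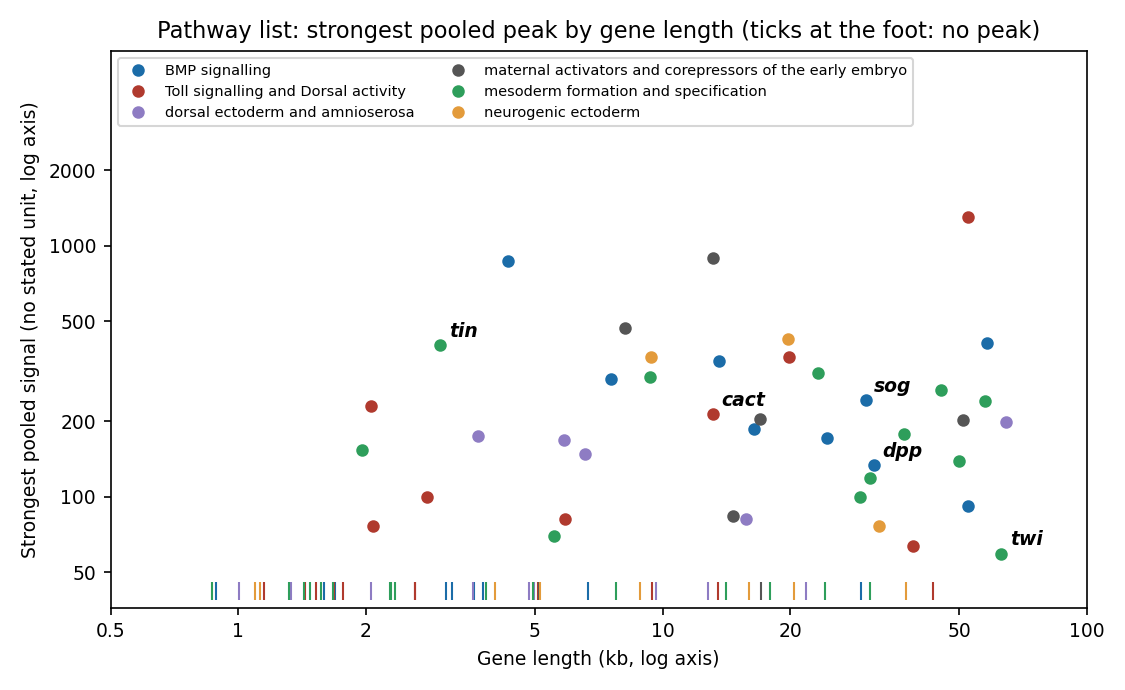
Each point is a gene of the pathway list with a pooled peak, placed by its length (x axis, kb, log scale) and by the pooled signal of its strongest peak (y axis, no stated unit, log scale), with the 5 members named. Ticks at the foot mark the genes without a peak, most of which are shorter than 10 kb, and the named genes span the range from 59.3 at twi to 402 at tin.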

How the data were processed

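The measurements were peak lists of CG4730-eGFP ChIP-seq, with 2 biological replicates in 1 group. Per the labels, the files use dm6 and chromatin was sonicated to 200 to 800 bp. Per the file headers and notes, the authors deposited IDR ranked and IDR thresholded lists for each replicate and for the pooled replicates. Aligner and peak caller are not given in the sources used here, and neither is a unit for the deposited peak signal. The deposited score, a whole-number transform of the global IDR, was at least 830 in every thresholded list. The −log10 of the global IDR in the deposited ranked lists was at least 2.00 for the peaks kept, but 66 to 115 peaks per list at or above the lowest kept value were not kept, for a reason that the files do not give. In the pooled ranked lists 16 columns with values of the compared inputs have no names and were not used.

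Genes came from Ensembl release 115. For the 10 members its coordinates equalled RefSeq's, and no peak on the arms ended beyond the NCBI sequence. Starts of pseudogenes and transposable elements were left out of distances. Replicate peaks were matched to a pooled peak by overlap and the closest summit. The members and lists were chosen with earlier results of these data known, and the split at 10 kb after the data were seen. Every member and every listed gene with a pooled peak is named, and 3 symbols were matched by synonym and 1 in another letter case. Alternatives were the conservative set, each replicate's own set, windows of 0, 500 and 5000 bp, overlap of the peak interval, the stronger peaks, restored peaks and other motif windows. The counting and motif search were tested on simulated data. Python 3.11.15, numpy 2.4.6, pandas 2.3.3 and matplotlib 3.10.9 were used.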

Additional observations from a re-analysis of the deposited data

How the results depend on the processing

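The count of members with a pooled peak was 5, and it ranged from 3 to 4 when 1 replicate's own set was used alone. With replicate 1 alone dpp and twi were lost, and with replicate 2 alone only twi was. It was 3 with a summit required in the own sets of both replicates, a setting chosen after the data were seen. It stayed within 1.5 times of 5 under the other alternatives, and twi was lost in the conservative set, with the peaks above the median signal, and when its downstream starts were used. The share of all coding genes with a peak, 22.7% in the main setting, was 10.03% with a window of 0 bp, 39.7% with 5000 bp, 14.2% with the peaks above the median signal and 14.0% with both replicates required, and 16.6% to 17.4% with 1 replicate alone. With the 0 bp window tin was lost, since its summit lies upstream of the gene. The 42 pathway genes ranged from 31 to 55. Motif counts differed with the window in 5 of 18 comparisons. No paired analysis was possible because there is only 1 group. The read depth is unknown, so a gene without a peak may hold binding that these lists could not show.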
